A study of Danio rerio with 6 samples.

Results

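Skeletal muscle formation was followed through 9 genes in trunks of zebrafish (Danio rerio) embryos mutant for qkia and injected with a qkic morpholino. The genes were chosen by name, with earlier results of these data known, and were looked up in tables of 24789 genes. They are the myogenic factors myod1, myf5, myog and myf6, the fusion receptors jam2a and jam3b, the surface coreceptor cdon, a mef2c gene (ENSDARG00000029764) and a pax3 gene (ENSDARG00000010192). A symbol matched 6 of them and an identifier 2. For jam3b the names table gives only the human name JAM3, carried by a single row, ENSDARG00000061794. That row is reported as JAM3, and the names do not tell it from jam3a.

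The libraries fell into 2 groups of 3, both from crosses of qkia+/- fish whose offspring were injected with 0.6 pmol of a morpholino, an antisense oligonucleotide that blocks translation or splicing. Qkiac libraries came from qkia-/- embryos that received the qkic morpholino. Control libraries came from qkia+/+ or qkia+/- siblings that received the control morpholino. Embryos were assigned to a group by their morphology at 24 to 26 h after fertilization, and the head and yolk were removed before freezing. Genotype and morpholino therefore differed together, and Control libraries could hold embryos of both sibling genotypes. The labels do not say how many embryos made up a library.

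In vertebrate embryos, muscle precursors of the somite are committed by the basic helix-loop-helix (bHLH) proteins Myod1 and Myf5. Myog and Myf6 act later, as cells leave the cell cycle and differentiate, and Mef2 proteins bind DNA together with them. Pax3 marks muscle progenitors of the dermomyotome, and also the dorsal neural tube and neural crest. In zebrafish, Jam2a on one fast muscle precursor binds Jam3b on its neighbour, and this contact is needed for the cells to fuse into multinucleate fibres.

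The gene tables corresponded to between 38804265 and 44799398 reads per library. The mutated gene qkia (ENSDARG00000097478) averaged 5.42 ± 1.86 in Qkiac and 67.5 ± 12.6 in Control libraries (SD, n = 3 each), in units of normalized read count, which is the number of reads on a gene divided by 1 size factor per library. No gene is named qkic. Of the genes with the human name QKI, ENSDARG00000010018 averaged 331 ± 21.4 in Qkiac and 637 ± 41.1 in Control libraries. ENSDARG00000002026 averaged 41.9 ± 6.81 in Qkiac and 38.4 ± 3.52 in Control libraries. How far the morpholino lowered the Qkic protein was not measured here. The chi-square per degree of freedom between libraries of a group was 2.17 to 2.53 for Qkiac and 8.46 to 15.2 for Control, where counting error alone gives about 1. Control libraries thus differed more from each other. Head markers, which removal of the head should keep low, summed to 1093 to 1136 in Qkiac and 1096 to 1168 in Control libraries, and among the 8 tested EN2 (ENSDARG00000026599, -2.15) was lower and DLX2 (ENSDARG00000079964, 0.26) higher on the log2 scale. DLX2 did not pass without Qkiac replicate 1 (limma adjusted p = 0.186) or 3 (0.105) or Control replicate 1 (0.0564) or 2 (0.132). Levels are compared between libraries and not between genes, since gene lengths were not available for these tables.

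Of the 9 genes, 6 passed the limma test across all genes (Benjamini-Hochberg adjusted p under 0.05), 4 higher and 2 lower in Qkiac trunks. The genes myog, jam2a, JAM3 and mef2c were higher, and cdon and pax3 were lower. The same test called 41.9% of the 18917 genes tested, 21.9% higher and 20.0% lower, so calls were common among all genes. The share of 66.7% rests on only 9, which were chosen with earlier results known. The groups did not overlap for these same 6, and for 52.1% of all genes tested. With edgeR and with DESeq2 the calls were again 4 higher and 2 lower, where these tools called 42.0% and 36.2% of all genes. After quantile normalization 5 of the 9 passed, against 40.1% of all genes, and without the intensity trend in limma's variance fit 4 passed, against 32.9%. The median log2 change was 0.06 over the 9 genes and 0.00 over all genes tested. Only jam2a changed by at least 1.5-fold, a size that 10.1% of all tested genes reached while passing the test. In a bulk trunk sample, fewer cells of a type and less RNA per cell cannot be told apart.

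**Figure D1:**
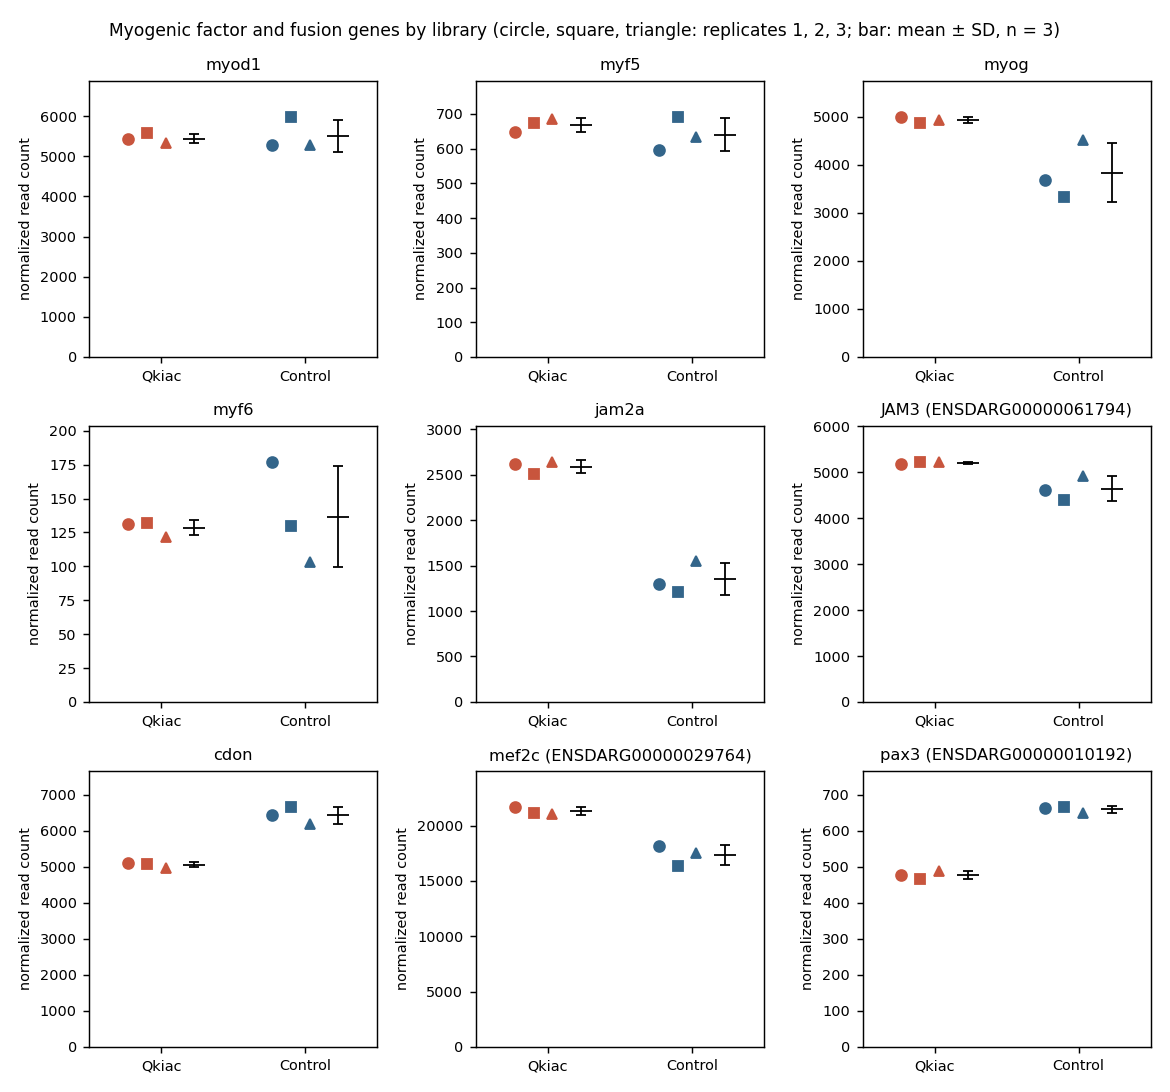
Normalized read count (y axis, from 0) of each of the 9 genes in the 3 Qkiac and 3 Control libraries, with the mean and SD beside the points. The groups are separated for myog, jam2a, JAM3, cdon, mef2c and pax3 and overlap for myod1, myf5 and myf6.

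Neither commitment factor passed the test. The normalized read count of myod1 (ENSDARG00000030110) was 5431, 5566 and 5324 in Qkiac replicates 1, 2 and 3, against 5288, 5976 and 5274 in Control replicates 1, 2 and 3. All Qkiac values lay inside the Control range. Qkiac minus Control gave a log2 change of -0.02 for myod1, with a 95% interval of -0.13 to 0.10 (limma adjusted p = 0.828).

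For myf5 (ENSDARG00000007277), which acts beside myod1 in commitment, the counts were 647, 674 and 686 in Qkiac and 597, 691 and 634 in Control libraries. The groups overlapped, and Control replicate 2 was the highest of the 6. On the log2 scale myf5 differed by 0.06 (95% interval -0.08 to 0.21, limma adjusted p = 0.490). The ratio of myf5 to myod1 within a library was 0.123 ± 0.00509 in Qkiac and 0.116 ± 0.00376 in Control libraries (SD, n = 3 each), with overlapping values.

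The differentiation factor myog (ENSDARG00000009438) rose. Its normalized read count was 4992, 4874 and 4928 in Qkiac libraries, against 3674, 3321 and 4513 in Control libraries. The lowest Qkiac library was above the highest Control library, and Control replicate 3 stood nearest to the Qkiac values. The mean was 4931 ± 59.2 in Qkiac and 3836 ± 612 in Control libraries (SD, n = 3 each). The increase was 1.3-fold, or 0.37 on the log2 scale (SE 0.08, limma adjusted p = 0.00102). The call ended when the variance was fitted without an intensity trend (limma adjusted p = 0.0552). The ratio of myog to myod1 was 0.919, 0.876 and 0.926 in Qkiac libraries and 0.695, 0.556 and 0.856 in Control libraries. This ratio did not overlap between the groups and was not tested.

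The late factor myf6 (ENSDARG00000029830) was the least abundant of the bHLH factors in reads, with 101 to 201 reads per library. It had normalized read counts of 131, 132 and 122 in Qkiac, against 177, 130 and 103 in Control libraries. Control replicate 1 was the highest and Control replicate 3 the lowest of all 6, so the Qkiac values lay inside the Control range. The log2 change of myf6 was -0.06 (95% interval -0.40 to 0.28, limma adjusted p = 0.798). Without Control replicate 1 it was 0.14 (limma adjusted p = 0.461). Its interval was the widest of the 9.

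The mef2c gene (ENSDARG00000029764), which encodes a MADS-box partner of the myogenic factors, rose. Its normalized read count was 21698, 21152 and 21062 in Qkiac libraries, against 18124, 16345 and 17538 in Control libraries. All Qkiac libraries were above all Control libraries. The increase of mef2c was 1.23-fold, or 0.30 on the log2 scale (SE 0.05, limma adjusted p = 2.25e-04), and it came to 0.14 on that scale after quantile normalization (limma adjusted p = 0.0257). The other gene with the human name MEF2C (ENSDARG00000009418) averaged 780 ± 10.6 in Qkiac and 688 ± 132 in Control libraries. Its log2 change was 0.20 (95% interval -0.01 to 0.41, limma adjusted p = 0.126), and the difference between the 2 copies was not tested. Heart muscle also uses Mef2c, and 2 of 5 tested heart markers were higher, MYH6 (ENSDARG00000079564, 1.6) and TNNT2 (1.2), at low levels. The heart markers MYH7 (0.38, limma adjusted p = 0.143), GATA5 (-0.13, 0.525) and HAND2 (-0.30, 0.119) did not pass. Among all genes tested 21.9% were higher. The summed heart marker level was 359 to 371 in Qkiac and 289 to 376 in Control libraries, and the heart myosin light chain gene MYL7 averaged 0.995 ± 0.997 in Qkiac libraries and was listed at 0 in all Control libraries. HAND2 (106 in Qkiac, 130 in Control) and GATA5 (103 and 115) had the largest means in that sum. The part of heart cells was not tested.

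**Figure D2:**
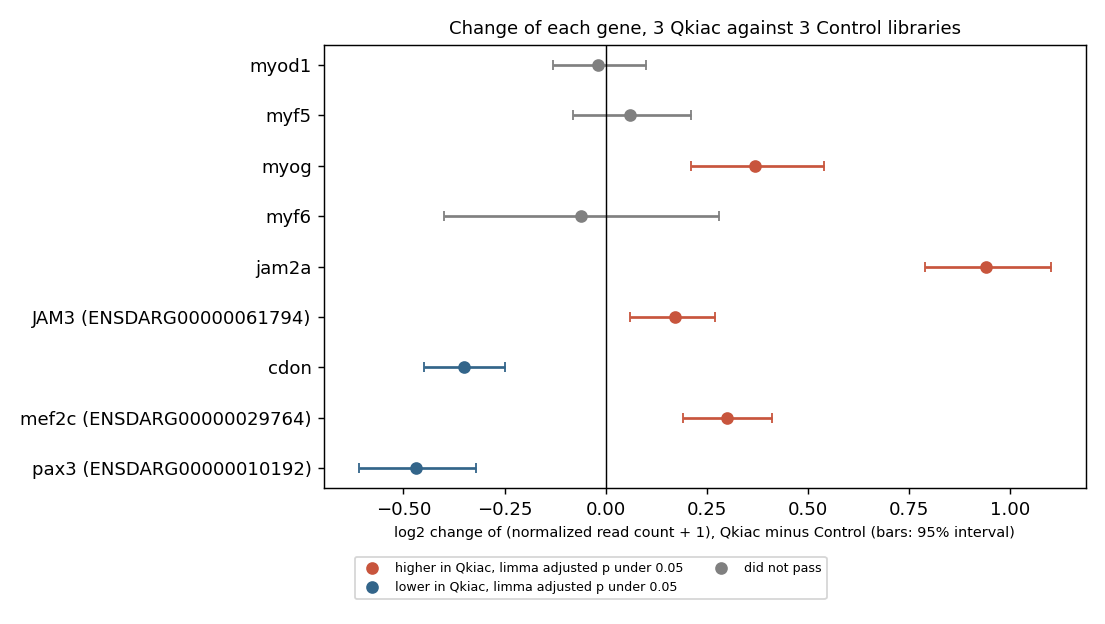
Log2 change of each of the 9 genes, Qkiac minus Control (x axis), with its 95% interval from limma. The interval of jam2a, 0.79 to 1.1, is the farthest from 0, and those of myod1, myf5 and myf6 include 0.

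The fusion receptor gene jam2a (ENSDARG00000058996) had the largest change of the 9. Its normalized read count was 2617, 2512 and 2641 in Qkiac libraries, against 1300, 1210 and 1550 in Control libraries. Every Qkiac library was above every Control library by a wide gap. The log2 change of jam2a was 0.94 (SE 0.07, 95% interval 0.79 to 1.1, limma adjusted p = 5.04e-08), a 1.92-fold increase, and it ranked 295 among the increases of the 18917 genes tested. The related gene jam2b (ENSDARG00000079071) averaged 345 ± 13.6 in Qkiac and 305 ± 31.9 in Control libraries, and its log2 change of 0.18 had a 95% interval of -0.01 to 0.38 (limma adjusted p = 0.124, not passing). The ratio of jam2a to jam2b was 7.51 ± 0.443 in Qkiac and 4.48 ± 0.812 in Control libraries (SD, n = 3 each), without overlap. That ratio was not tested.

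JAM3 (ENSDARG00000061794), the row that stands for jam3b or jam3a, had a smaller change. Its normalized read count was 5180, 5226 and 5221 in Qkiac libraries, against 4626, 4391 and 4921 in Control libraries. The groups did not overlap, and Control replicate 3 was again the nearest to the Qkiac values. JAM3 was 1.12-fold higher, which is 0.17 on the log2 scale (SE 0.05, limma adjusted p = 0.0139). This call was fragile. It ended after quantile normalization (log2 change 0.10, limma adjusted p = 0.105), without the intensity trend (0.0855), and without Qkiac replicate 1 (0.0521), 2 (0.0607) or 3 (0.0563). The ratio of jam2a to JAM3 was 0.505, 0.481 and 0.506 in Qkiac libraries and 0.281, 0.276 and 0.315 in Control libraries. This ratio did not overlap between the groups either and was not tested.

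**Figure D3:**
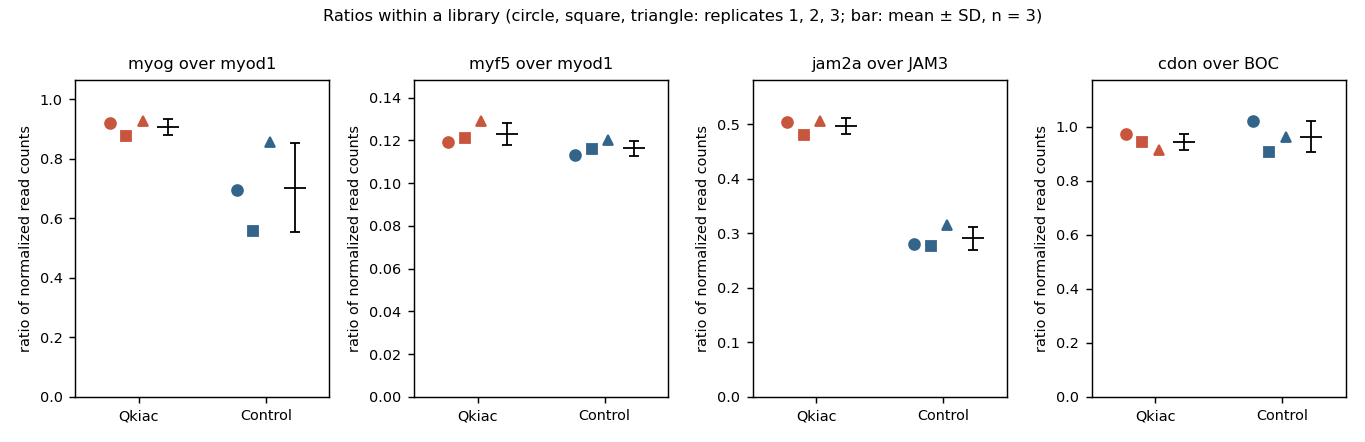
Ratios of normalized read counts within each library (y axis, from 0) for 4 pairs of genes, with mean and SD of 3 libraries. The ratios of myog to myod1 and of jam2a to JAM3 are higher in all Qkiac than in all Control libraries, while those of myf5 to myod1 and cdon to BOC overlap.

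In Control libraries jam2a, JAM3 and myog shared an order, with replicate 3 highest and replicate 2 lowest. The genes myod1, myf5, myf6, mef2c, cdon and pax3 had other orders. For myod1, cdon and pax3 replicate 2 was highest and replicate 3 lowest. How many of all genes tested share the order of jam2a was not counted. The summed level of 9 erythroid marker genes had the same order as jam2a, at 11804, 6273 and 17768 in Control replicates 1, 2 and 3. In Qkiac libraries that sum was 52666 to 53948, and 8 of the 9 markers were higher and 1, SLC4A1 (ENSDARG00000024560, -0.84), lower. The list planned slc4a1a alone, and the human name SLC4A1 brought in both rows. The lower SLC4A1 gene averaged only 31.2 ± 10.9 in Qkiac and 54.5 ± 3.67 in Control libraries. Of all genes tested, 21.9% were higher and 20.0% lower. The erythroid genes with the smallest adjusted p-values were hemgn (2.30), cahz (2.12), the other SLC4A1 gene (ENSDARG00000012881, 2.53) and hbae1.1 (2.32). The summed level of 8 endothelial markers was 4639 to 4716 in Qkiac and 3480 to 4014 in Control libraries, with LMO2 (1.35), cdh5 (1.31), TAL1 (0.90) and she (0.19) higher and tek (-0.69) and FLI1 (-0.27) lower. KDR (0.23, limma adjusted p = 0.442) and TIE1 (0.04, 0.746) did not pass. The largest differences in counts within this sum were those of LMO2, with means of 1004 in Qkiac and 400 in Control libraries, and TAL1, with 1021 and 551. The endothelial list as a whole is therefore not described as higher. The call of she ended without Qkiac replicate 1 (limma adjusted p = 0.0643) or 3 (0.0577), and that of the lower SLC4A1 gene without Qkiac replicate 3 (0.0606). Of these lists 0 genes were at 0 in all libraries. The part of blood and vessel cells in the values of jam2a, JAM3 and myog was not tested. Without Control replicate 3 the log2 change was 1.05 for jam2a and 0.50 for myog, and without Control replicate 2 it was 0.87 and 0.28.

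The surface protein gene cdon (ENSDARG00000061328), a coreceptor for Hedgehog ligands, fell. The normalized read counts of cdon were 5112, 5076 and 4976 in Qkiac libraries, against 6442, 6659 and 6187 in Control libraries. The highest Qkiac library was below the lowest Control library. Qkiac libraries had a cdon log2 change of -0.35 (SE 0.05, limma adjusted p = 2.35e-05), a 1.27-fold decrease. Its relative BOC (ENSDARG00000074335), which acts beside Cdon, averaged 5361 ± 93.4 in Qkiac and 6711 ± 572 in Control libraries, a log2 change of -0.32 (limma adjusted p = 2.41e-04). The ratio of cdon to BOC was 0.943 ± 0.029 in Qkiac and 0.961 ± 0.0564 in Control libraries (SD, n = 3 each), with overlap.

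The pax3 gene (ENSDARG00000010192) fell the most of the 9. Counts of pax3 were 478, 465 and 488 in Qkiac libraries, against 662, 666 and 649 in Control libraries. Spread was small in both groups and they did not overlap. The log2 change of pax3 was -0.47 (SE 0.07, limma adjusted p = 3.71e-05), a 1.38-fold decrease. The other gene with the human name PAX3 (ENSDARG00000028348) averaged only 22.5 ± 4.19 in Qkiac and 29.9 ± 5.35 in Control libraries. Its log2 change was -0.40 (95% interval -0.94 to 0.14, limma adjusted p = 0.228).

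Markers of neural tube and neural crest, tissues that also use pax3, were divided between lower and not passing. The summed level of 12 neural tube markers was 48803 to 49360 in Qkiac and 53512 to 60764 in Control libraries, with 8 lower and 0 higher, led by ELAVL3 (-0.51), GAD1 (ENSDARG00000027419, -0.52), OLIG2 (-0.41) and GFAP (-0.31). That of 10 neural crest markers was 13023 to 13288 in Qkiac and 14321 to 14718 in Control libraries, with 5 lower and 0 higher of the 8 tested. These 5 were DCT (-0.43), EDNRB (ENSDARG00000089334, -0.36), MITF (ENSDARG00000003732, -0.29), TFAP2A (-0.20) and pmela (-0.19), the last of which did not pass without Qkiac replicate 1 (limma adjusted p = 0.0957), 2 (0.0946) or 3 (0.133) or Control replicate 2 (0.227). The crest marker SOX10 had 1318 ± 23.4 in Qkiac and 1199 ± 73.1 in Control libraries (SD, n = 3 each), without overlap (log2 change 0.14, limma adjusted p = 0.0697, not passing). The neural tube marker SOX2 had a log2 change of -0.03 (limma adjusted p = 0.689). Over all genes tested 20.0% were lower and 21.9% higher. Of these lists 0 genes were at 0 in all libraries. The part of neural tube and neural crest cells in the decreases of cdon and pax3 was not tested.

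**Figure D4:**
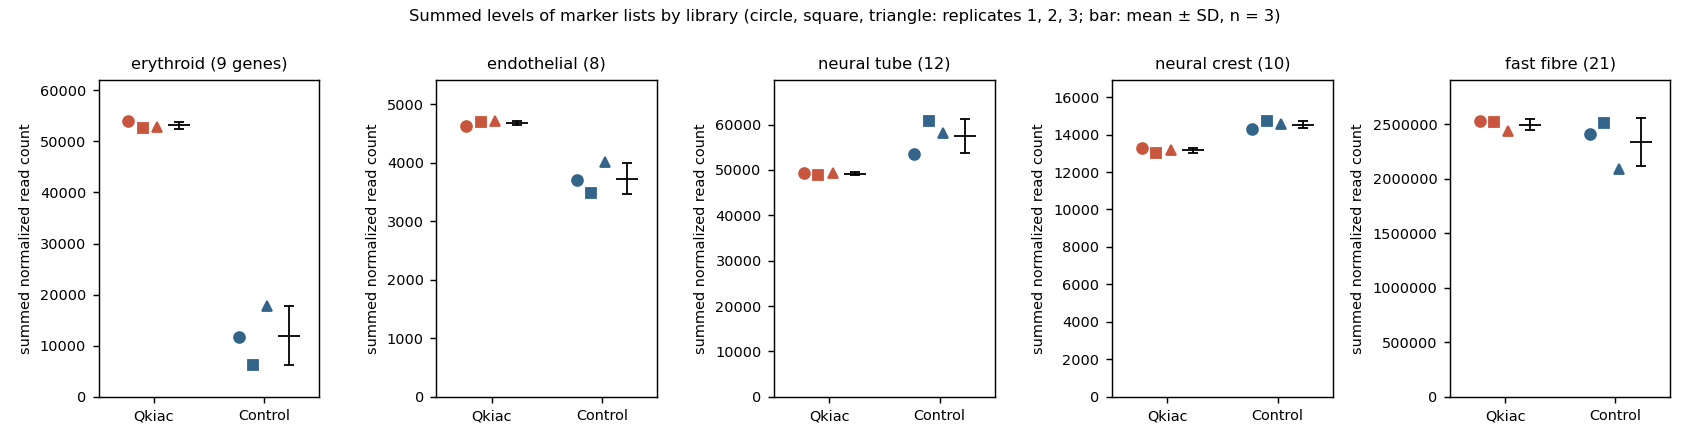
Summed normalized read count of 5 marker lists in each library (y axis, from 0), with mean and SD of 3 libraries. The erythroid and endothelial sums are higher, and the neural tube and neural crest sums lower, in all Qkiac than in all Control libraries, whereas the fast fibre sums overlap. The endothelial list holds genes of both directions, and LMO2 and TAL1 differ most in counts.

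Variation between libraries of a group was unequal. The coefficient of variation (CV, the SD as a percentage of the mean) was larger in Control than in Qkiac libraries for 8 of the 9 genes, pax3 being the exception, and for 67.4% of all genes tested. The median CV over the 9 genes was 2.23% in Qkiac and 7.27% in Control libraries. Over all genes tested it was 5.48% and 8.43%. In Qkiac libraries 6 of the 9 CVs were below the value that counting reads alone would give, as for JAM3, with 0.481% against 1.41%. That share was not counted over all genes. In Control libraries the largest CVs were those of myf6 (27.6%) and myog (16%). The series calls the libraries biological triplicates, and all p-values rest on the spread among them, which may be partly technical.

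Genes that act with the 9 were examined in 8 lists, also chosen with earlier results of these data known. Together they gave 19 higher and 29 lower of 103 tested. Over all 18917 genes tested 41.9% were called, 21.9% higher and 20.0% lower. The counts of each list stand beside these shares, and no list was tested as a set. Among genes of transcriptional partners of the myogenic factors, 6 of 15 tested were lower and 1 was higher (median log2 change 0.02). Those that fell were eya2 (-0.47), a transcriptional cofactor, EYA1 (-0.23), EYA4 (-0.18), the bHLH dimer partner genes TCF12 (-0.34) and tcf3a (-0.37), and SMARCD3 (ENSDARG00000019969, -0.53), a chromatin remodelling subunit. Without Qkiac replicate 1, tcf3a (limma adjusted p = 0.0590) did not pass, and EYA4 did not pass when any 1 library other than Control replicate 3 was left out (0.0556 to 0.0878). The list gave 0 higher and 4 lower without Qkiac replicate 1, 4 and 5 without Control replicate 1, and 2 and 6 without Control replicate 3.

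Inhibitors of bHLH myogenic factors gave 4 of 14 higher and 1 lower (median 0.09). The genes that rose were HEY2 (log2 change 0.43) and HEY1 (0.25), which encode Notch-induced repressors, and ID3 (0.28) and id2b (0.27), whose products bind bHLH proteins and keep them off DNA. The gene that fell was twist1a (-0.23). Without Qkiac replicate 1 the list gave 4 higher and 2 lower, and without Control replicate 3 it gave 5 and 2. The abundant ID1 had a log2 change of 0.05 (limma adjusted p = 0.529).

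Fusion machinery genes gave 5 of 14 higher and 1 lower (median 0.10). The adaptor gene NCK1 (ENSDARG00000075369) rose, with 2192 ± 55.5 in Qkiac and 1566 ± 46.9 in Control libraries (SD, n = 3 each; log2 change 0.48). The muscle cadherin gene CDH15 rose (0.31), as did the adaptor genes CRK (0.18) and CRKL (0.15) and the GTPase gene rac1a (0.13). ELMO2, whose product works with Dock proteins in Rac activation, fell 1.85-fold, with 153 ± 4.48 in Qkiac and 288 ± 53.1 in Control libraries (log2 change -0.89, limma adjusted p = 2.46e-05). Without Qkiac replicate 1 the list gave 2 higher and 1 lower, as the calls of CRK (limma adjusted p = 0.0571), CRKL (0.0815) and rac1a (0.176) ended. CRKL did not pass without Qkiac replicate 2 (0.0507) or 3 (0.0569) either, nor rac1a without Qkiac replicate 2 (0.15) or 3 (0.0879) or Control replicate 1 (0.0866) or 2 (0.119). The list gave 3 higher and 1 lower without Qkiac replicate 2 or 3, 6 and 3 without Control replicate 3, 3 and 3 after quantile normalization, and 1 and 1 without the intensity trend, where the call of CDH15 also ended (limma adjusted p = 0.0752). The call of rac1a ended with edgeR as well (adjusted p = 0.0631).

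Genes that work with Cdon in Hedgehog reception gave 1 of 10 higher and 3 lower (median -0.11). SHH (ENSDARG00000068567), a Hedgehog ligand gene, rose (0.31), while BOC (-0.32) and the signal transducer gene SMO (-0.17) were among those that fell. Quantile normalization gave 1 higher and 5 lower, and SMO did not pass without Qkiac replicate 1 (limma adjusted p = 0.0793) or 2 (0.066). Without Control replicate 2 the list gave 2 higher and 3 lower, and without Control replicate 3 it gave 2 and 4.

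Muscle progenitor genes other than pax3 gave 2 of 9 higher and 3 lower (median -0.10). PAX7 (ENSDARG00000070818), a gene of dermomyotome and muscle stem cells, was lower in all Qkiac libraries at 333, 315 and 311, against 419, 404 and 439 in Control libraries (log2 change -0.39, limma adjusted p = 8.03e-04). The homeobox genes lbx1a (-0.43) and MEOX1 (-0.15) also fell. The call of lbx1a ended without Qkiac replicate 2 (limma adjusted p = 0.0881) or 3 (0.124) or Control replicate 2 (0.09), and that of MEOX1 without Qkiac replicate 1 (0.0916), 2 (0.12) or 3 (0.172) or Control replicate 3 (0.168). The list gave 1 lower without Qkiac replicate 2 or 3. The somite bHLH gene TCF15 (0.27) and the homeobox gene lbx2 (0.26) rose.

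Presomitic mesoderm genes gave 1 of 12 higher and 2 lower (median 0.00). The Notch ligand gene dlc fell (-0.66) with 1475 ± 89.7 in Qkiac and 2333 ± 81.1 in Control libraries (SD, n = 3 each), and her1 fell (-0.28). The call of her1 ended without Qkiac replicate 1 (limma adjusted p = 0.127) or 3 (0.07) or Control replicate 3 (0.0695), which left 1 gene lower. The gene ripply1, which helps end the segmentation programme as somites form, rose (0.43). The progenitor T-box genes tbx16 (-0.04) and tbx6 (0.02) did not pass. Without Control replicate 3 the list gave 4 higher and 1 lower.

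Among fibre genes, 5 of 8 slow fibre genes were lower and 1 higher (median -0.32), and 8 of 21 fast fibre genes were lower and 4 higher (median 0.00). The slow fibre genes that fell were the muscle pioneer gene EN2 (ENSDARG00000026599, -2.15), TNNT1 (-1.79), PROX1 (-0.60), PRDM1 (-0.26) and myl10 (-0.23), and TNNI1 (ENSDARG00000052708, 0.75) rose, though not without Qkiac replicate 1 (limma adjusted p = 0.104) or 2 (0.0719) or Control replicate 2 (0.0838). Of these, PRDM1, which directs the slow fibre fate downstream of Hedgehog, had 1297 ± 24.0 in Qkiac and 1555 ± 180 in Control libraries (log2 change -0.26, limma adjusted p = 0.00695), a call that ended without the intensity trend (0.0781). Few reads held EN2 (16 to 38 in Qkiac libraries), TNNT1 (8 to 17) and TNNI1 (26 to 40). The abundant slow fibre gene TNNC1 had 12411 ± 119 in Qkiac and 13174 ± 106 in Control libraries, without overlap. It did not pass (log2 change -0.09, limma adjusted p = 0.145). Among fast fibre genes the smallest adjusted p-values were those of the myosin heavy chain gene myhz2 (-1.02), mybpc2b (-0.69), pvalb1 (-0.55) and ACTA1 (ENSDARG00000036371, -0.36). Those higher were myhz1.3 (0.43), ACTA1 (ENSDARG00000055618, 0.31), the creatine kinase gene ckmb (0.28) and MYL1 (ENSDARG00000014196, 0.20). The signs were divided within families whose close copies can share reads, and ckmb had -0.08 after quantile normalization. The call of ckmb ended without Qkiac replicate 1 (limma adjusted p = 0.102) or 2 (0.137), and that of MYL1 without Qkiac replicate 1 (0.168), 2 (0.139) or 3 (0.0966) or Control replicate 2 (0.0653). The summed fast fibre level was 2439823 to 2527717 in Qkiac and 2084815 to 2511685 in Control libraries, and the groups overlapped. Control replicate 3, the highest Control library for myog and jam2a, had the lowest fast fibre sum. Fast fibre genes gave 1 higher and 11 lower after quantile normalization, 2 higher and 7 lower without Qkiac replicate 1 or 2, and 6 higher and 8 lower without Control replicate 1.

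Calls of other named genes also ended under other settings. Without the intensity trend these were EYA4 (limma adjusted p = 0.123), CRK (0.0669), CRKL (0.0642), rac1a (0.144), SMO (0.0826), MEOX1 (0.163), lbx1a (0.0935), MYL1 (0.0685), pmela (0.196) and DLX2 (0.0829). After quantile normalization they were CRK (0.0537), CRKL (0.0792), rac1a (0.392), lbx1a (0.0575), her1 (0.0565), MYL1 (0.814), ckmb (0.26) and the higher ACTA1 gene (0.121). With no filter on low values they were rac1a (0.0626), MEOX1 (0.0631), MYL1 (0.0606), pmela (0.0583) and DLX2 (0.0501). With DESeq2 they were rac1a (adjusted p = 0.0623), MEOX1 (0.0574), her1 (0.0517), TNNI1 (0.0757) and DLX2 (0.0853). With the replicate number as a block in the limma fit they were rac1a (limma adjusted p = 0.0877), MEOX1 (0.0549), MYL1 (0.128) and ckmb (0.0925).

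**Figure D5:**
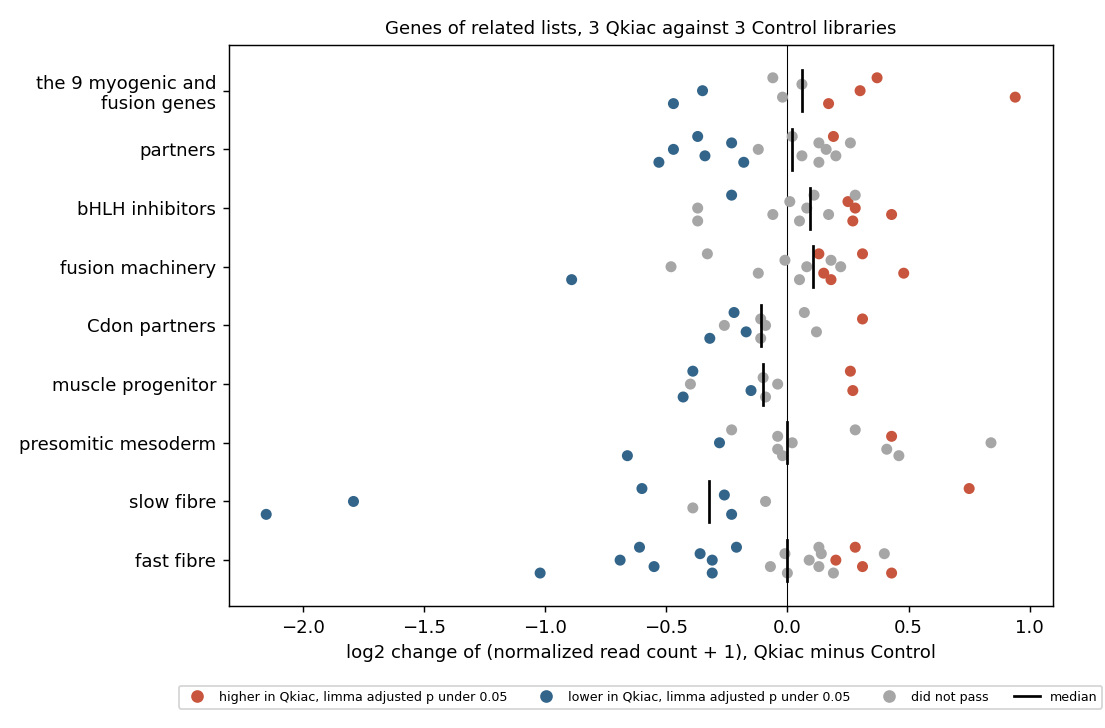
Log2 change, Qkiac minus Control (x axis), of every tested gene in the 9 genes and in each of the 8 related lists, coloured by whether it passed the limma test, with a bar at the median. The medians lie between -0.32 for slow fibre genes and 0.10 for fusion machinery genes.

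For each of the 9 genes the most similar profile was sought among the 12499 genes that have a symbol and average at least 50. Similarity was the root mean square (RMS) distance in log2 units between profiles over the 6 libraries, each centred on its own mean. The nearest was RAD50, a DNA repair gene, for jam2a (RMS 0.0278) and the erythropoietin gene epoa for myog (0.026). It was SPCS2, a signal peptidase subunit gene, for JAM3 (0.00979), pbxip1b for mef2c (0.0159), hnrnpul1l for cdon (0.00939) and TMEM125 for pax3 (0.0153). It was POLE, a DNA polymerase gene, for myod1 (0.0189), PLEKHA3 for myf5 (0.0175) and the calpain gene capn2l for myf6 (0.0431). The third nearest to jam2a was TAL1 (0.0568), one of the endothelial and blood progenitor markers.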

How the data were processed

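Poly(A) RNA from trunks was sequenced as 50 bp reads without strand, per the labels' protocols, so reads of overlapping antisense genes are not told apart. The deposited values are a signal per gene, reads divided by 1 size factor per library (0.897 to 1.13), and 100% were whole multiples of 1 read within 0.001 of a read. The submitters' processing notes name build Zv9 and, with no role given, DESeq 1.8.3, HTSeq 0.5.3, STAR 2.4.0j, Bowtie 0.12.9 and SAMtools. Exon tables were not used here, as exons are not paired with genes.

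Genes reaching 10 in 3 or more libraries were tested with limma 3.58.1 (R 4.3.3, eBayes with trend) on log2(value + 1), a scale that understates changes of low genes. P-values are 2-sided and adjusted over all tested genes by Benjamini-Hochberg. Recovered reads were tested with edgeR 4.0.16 and DESeq2 1.42.0 as alternatives. Names matched 18555 of 24789 identifiers. Of 190 list entries 164 were matched, 49 of them through a human name once the last letter, a or b, was removed. Where several rows carried a name all were taken, so the lists and their counts can hold copies that were not planned. The 9 genes and the lists were chosen with earlier results of these data known. From each list the text names genes by smallest adjusted p, and all where 5 or fewer passed in a direction. ID1, tbx16, tbx6 and TNNC1 were added after their values were seen. Also named outside this rule, as they did not pass or were not tested, are jam2b, SOX2, SOX10 and MYL7. So are KDR, TIE1, EMX2, OTX2, MYH7, GATA5, HAND2 and the second MEF2C and PAX3 genes. Some genes counted in the lists are not reported here by name. The tests were tried on simulated data.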

Additional observations from a re-analysis of the deposited data

How the results depend on the processing

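Of 16 alternatives, jam2a, mef2c, cdon and pax3 passed in 16 and kept their direction, myog in 15 and JAM3 in 11. The 9 genes gave 4 calls without the intensity trend, 5 after quantile normalization and 6 with edgeR and with DESeq2. The log2 change of myf6 was 0.00 after quantile normalization, and leaving out 1 library gave -0.25 to 0.14 for myf6 and -0.05 to 0.04 for myod1. Leaving out 1 library gave 5 to 6 calls among the 9 genes, 36 to 59 among the 103 tested genes of the 8 lists (48 with all libraries) and 6110 to 8395 among all genes. The genes of the 8 lists gave 19 higher and 29 lower as deposited, 15 and 36 after quantile normalization, and 13 and 22, or 35 in all, without the intensity trend. The replicate numbers are not stated to pair libraries: same-numbered libraries had correlations of deviations of -0.07, 0.01 and -0.02. With the replicate block 7814 genes were called, against 7935 without it, and 6 of the 9. Low read numbers limit myf6 and the second PAX3 gene, and among the list genes EN2, TNNT1, TNNI1, the lower SLC4A1 gene and the heart markers.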
